A study of Mus musculus with 23 samples.

Results

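Transcripts of the mitochondrial genome were described in mouse testis together with Gm13341, a nuclear copy of the mitochondrial gene mt-Co2. The set holds 10 of the 28861 genes in the deposited count table, picked by symbol: mt-Nd1, mt-Nd2, mt-Nd4, mt-Nd5, mt-Cytb, mt-Co1, mt-Co2, mt-Co3, mt-Atp6 and Gm13341. They were chosen from deposited counts of these same libraries, in which mt-Co2, Gm13341 and mt-Nd2 stood apart in CAST/EiJ. What the members and their copies show in CAST/EiJ against the other strains is therefore given as a description with no test. Tests of the members concern diet and NZO/HlLtJ against C57BL/6J, and CAST/EiJ is tested only for nuclear genes of mitochondrial function, near the end. That pair of strains shares its C57BL/6J and NZO/HlLtJ libraries with the description.

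The study compared wild-type male mice of 3 inbred strains on 2 diets that began at 6 weeks of age, with tissue taken at 16 weeks and no other treatment. The diets held 44% fat with fiber, which the labels call rich in fat and sugar, or 10% fat with fiber as the control. There were 4 libraries of CAST/EiJ on 44% fat and 3 on 10% fat. NZO/HlLtJ gave 4 on 44% fat and 4 on 10% fat, and C57BL/6J gave 4 on 44% fat and 4 on 10% fat. CAST/EiJ is a strain derived from wild mice of the castaneus subspecies, NZO/HlLtJ is a strain prone to obesity, and C57BL/6J is the strain of the reference genome.

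Mammalian mitochondrial DNA encodes subunits of respiratory complexes I, III and IV and of ATP synthase, besides its own ribosomal and transfer RNAs. Both strands are transcribed as long precursors, which are cut mostly at the transfer RNAs that lie between the genes. Most of the messengers then receive short poly(A) tails. Pieces of mitochondrial DNA have also been copied into nuclear chromosomes, where they are annotated as pseudogenes, and a read that matches a mitochondrial gene and its nuclear copy can be counted for either. In the testis, mitochondria supply energy to germ cells and are packed into the sheath of the sperm tail.

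Libraries were made from polyA RNA and read as 100 bp pairs. Their totals lay between 33.0 and 78.7 M estimated counts in CAST/EiJ, between 31.9 and 43.4 M in NZO/HlLtJ and between 21.9 and 38.4 M in C57BL/6J. All 12 markers of elongating spermatids (Prm1, Tnp1 and others), all 13 of Sertoli cells and all 9 of Leydig cells were above 0 in each library, as the label testis requires. In a principal component analysis 3 libraries lay away from their groups: C57BL/6J on 10% fat replicate 4, NZO/HlLtJ on 44% fat replicate 3 and NZO/HlLtJ on 10% fat replicate 4. In CAST/EiJ on 44% fat replicate 2 the summed level of 11 epididymis and rete testis markers was 398 CPM, against 294 to 314 CPM in the other CAST/EiJ libraries. CPM stands for the counts-per-million scale, on which counts are divided by the TMM-normalised library total. Results were repeated without these 4 libraries.

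The first set of sequences shows how far mt-Co2 and its nuclear copies can be told apart. mt-Co2 encodes subunit 2 of cytochrome c oxidase (complex IV), which takes electrons from cytochrome c. In GENCODE M21 (GRCm38) the gene runs over chrMT:7013-7696 on the plus strand, as a single exon without introns. Gm13341 is a single-exon unprocessed pseudogene at chr2:22587291-22587962 on the minus strand. It lies in an intron of Myo3a, a myosin gene on the plus strand. Gm28661 is a second unprocessed pseudogene of mt-Co2, at chr1:24614885-24615565 on the minus strand. The 150 bases shown come from a part of mt-Co2 in which every base has a counterpart in Gm13341. Among such stretches of that length they hold the most differing bases. They cover chrMT:7469-7618, chr1:24614960-24615109 (minus strand) and chr2:22587369-22587518 (minus strand), and capitals mark the 9 positions at which Gm13341 differs from mt-Co2.
mt-Co2: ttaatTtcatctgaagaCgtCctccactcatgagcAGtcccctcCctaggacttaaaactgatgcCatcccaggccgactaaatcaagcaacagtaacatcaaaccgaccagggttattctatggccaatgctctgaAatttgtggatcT
Gm28661: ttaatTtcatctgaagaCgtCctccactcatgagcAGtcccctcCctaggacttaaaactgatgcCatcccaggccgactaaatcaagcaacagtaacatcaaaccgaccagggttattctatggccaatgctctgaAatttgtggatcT
Gm13341: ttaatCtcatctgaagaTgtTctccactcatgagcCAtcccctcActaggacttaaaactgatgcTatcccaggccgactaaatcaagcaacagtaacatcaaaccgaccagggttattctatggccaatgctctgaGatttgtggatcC

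Over its whole length Gm13341 aligned to mt-Co2 at 672 bases and differed at 16 of them, 13 transitions and 3 transversions. Of these differences, 14 fell on the third codon position of mt-Co2, 2 on the first and 0 on the second. Examples are T462C, C474T and A594G, with the mt-Co2 base first and positions counted from the first base of mt-Co2. A further 12 bases of mt-Co2, from base 433 to 444, have no counterpart in Gm13341. Of the 585 stretches of 100 bases in mt-Co2, the length of 1 read, 88 (15.04%) were identical in Gm13341. The median stretch had 2 bases that differed or had no counterpart. The longest identical run was 173 bases, from base 58 to 230. Gm28661 differed at 0 of 681 aligned bases and matched 582 of the 585 stretches. The remaining stretches reach bases 682 to 684 of mt-Co2, which lie past the annotated end of Gm28661. Only annotated transcripts were compared, so these bases are not shown to differ on chromosome 1.

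Both copies are parts of longer nuclear blocks. Gm13341 lies beside Gm13340, a copy of mt-Co1, and Gm13339, a partial copy of mt-Nd2, in 3243 bases at chr2:22587291-22590533. Gm28661 is 1 of 7 neighbouring copies in 4663 bases at chr1:24611535-24616197. In that block Gm10925 (mt-Atp6), Gm28437 (mt-Co3), Gm10222 (mt-Nd4l) and Gm28439 (mt-Nd4) had 0 differences from the mitochondrial gene over 678, 783, 294 and 876 bases. Gm28438 differed from mt-Nd3 at 1 of 345 bases, T3C, shown here with that base in capitals because it is the single difference found in the pair (chrMT:9459-9498 and chr1:24613080-24613119, minus strand).
mt-Nd3: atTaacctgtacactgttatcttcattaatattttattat
Gm28438: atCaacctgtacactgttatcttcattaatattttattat

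The counts of mt-Co2 and Gm13341 were exchanged between CAST/EiJ and the other strains. In CAST/EiJ, Gm13341 was at 768, 634, 704 and 658 CPM on 44% fat and at 733, 479 and 707 CPM on 10% fat. Its level in the 16 NZO/HlLtJ and C57BL/6J libraries lay between 0.0224 and 0.157 CPM. mt-Co2 in CAST/EiJ was at 3.81, 2.87, 1.92 and 1.95 CPM on 44% fat and at 1.53, 1.44 and 2.32 CPM on 10% fat. In NZO/HlLtJ it was at 803, 863, 841 and 859 CPM on 44% fat and at 751, 876, 911 and 932 CPM on 10% fat, and in C57BL/6J at 827, 843, 828 and 908 CPM on 44% fat and at 913, 934, 867 and 779 CPM on 10% fat. The libraries of CAST/EiJ did not overlap those of either other strain for either gene, and this held on both diets.

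Over all CAST/EiJ libraries Gm13341 received 194864 estimated counts, against 28 in NZO/HlLtJ and 23 in C57BL/6J. Scaled to library size, that is 7491 times the NZO/HlLtJ level (exact 95% interval 5183 to 11274) and 8008 times the C57BL/6J level (5337 to 12634). For mt-Co2 the sums were 713 counts in CAST/EiJ, 262874 in NZO/HlLtJ and 233476 in C57BL/6J. The NZO/HlLtJ level was 343 times that of CAST/EiJ (318 to 369), and the C57BL/6J level 346 times (322 to 373). These intervals cover counting error only. Gm13341 took a median of 99.7% of the counts of the pair in CAST/EiJ (range 99.5% to 99.8%), against 0.0129% in NZO/HlLtJ and 0.00782% in C57BL/6J.

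Neighbours of Gm13341 in the chromosome 2 block did not share its level. Gm13340 lay between 1.03 and 1.94 CPM in CAST/EiJ, between 0.326 and 1.05 CPM in NZO/HlLtJ and between 0.105 and 0.509 CPM in C57BL/6J, on 442, 196 and 81 counts in all. Gm13339 averaged 0.117 CPM in CAST/EiJ, 0.0939 CPM in NZO/HlLtJ and 0.0424 in C57BL/6J. Myo3a, the gene around the block, was looked up after the other values were seen and stood at 1.85 ± 0.355 CPM in CAST/EiJ (SD, n = 7), 1.61 ± 0.352 CPM in NZO/HlLtJ and 1.29 ± 0.197 in C57BL/6J (n = 8 each). The sources used here do not say if counting used the strand, and whether the Gm13341 counts in CAST/EiJ came from chromosome 2 or from the mitochondrial genome was not tested.

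Added together, mt-Co2 and Gm13341 came closer between the strains than either gene alone. Each was near 0 where the other was high, so their sum comes closer whatever the source of the counts. Their sum averaged 671 CPM in CAST/EiJ, 855 CPM in NZO/HlLtJ and 862 in C57BL/6J. The sum of the pair in CAST/EiJ was below that of C57BL/6J by 0.37 on the log2 scale (SE 0.0649) and below that of NZO/HlLtJ by 0.36 (SE 0.0648). Gm28661 averaged 1175 CPM in CAST/EiJ, 1204 CPM in NZO/HlLtJ and 1228 in C57BL/6J, and its libraries overlapped between all 3 strains. With Gm28661 in the sum the levels were 1847 ± 136 CPM in CAST/EiJ (n = 7), 2059 ± 114 CPM in NZO/HlLtJ and 2090 ± 156 in C57BL/6J (SD, n = 8 each). The summed libraries ran from 1635 to 2015 CPM in CAST/EiJ, from 1848 to 2191 CPM in NZO/HlLtJ and from 1812 to 2294 CPM in C57BL/6J, so the strains overlapped. CAST/EiJ then differed from C57BL/6J by -0.18 (SE 0.0478) and from NZO/HlLtJ by -0.16 (SE 0.0478) on the log2 scale, as a description. Gm28661 was at a similar level in each strain, so adding it lowers a log2 difference whatever the pair does. In CPM the strain means were no closer with Gm28661 than without it.

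**Figure D1:**
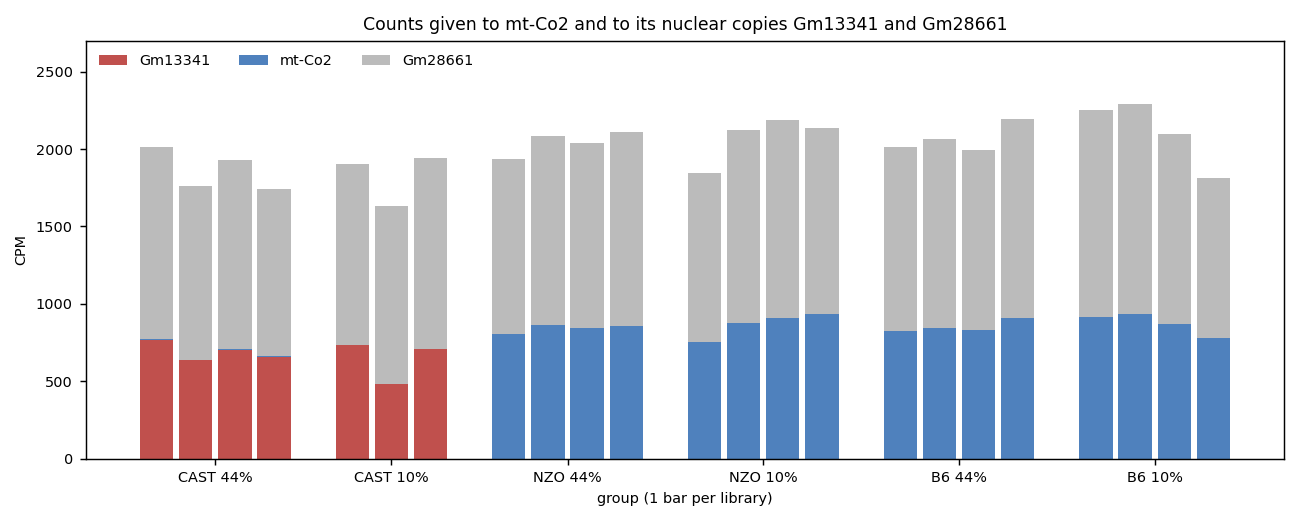
CPM (y axis) given to Gm13341, mt-Co2 and Gm28661 in each library, 1 stacked bar per library, with the groups by strain (B6 is C57BL/6J) and percent fat along the x axis. Gm13341 holds 479 to 768 CPM in CAST/EiJ and at most 0.157 CPM elsewhere, mt-Co2 holds 751 to 934 CPM outside CAST/EiJ, and Gm28661 holds between 1033 and 1359 CPM in every bar.

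Among the other copies on chromosome 1, Gm28437, Gm10925, Gm28438 and Gm10222 took a large part of the counts of their pair, and Gm28439 and Gm29216 hardly any. Gm28437, the copy of mt-Co3, took a median of 50.3% of the summed counts in CAST/EiJ, 50.7% in NZO/HlLtJ and 50.4% in C57BL/6J. Gm10925, the copy of mt-Atp6, took 45.4% in CAST/EiJ, 55.3% in NZO/HlLtJ and 53.3% in C57BL/6J, and its CAST/EiJ libraries (42.6% to 49.2%) lay below all others (51.3% to 56.5%). Gm28438 took 65.9%, 68.2% and 68.1% of the counts of its pair with mt-Nd3 in CAST/EiJ, NZO/HlLtJ and C57BL/6J. Gm10222 took 43.0% of its pair with mt-Nd4l in CAST/EiJ, 38.8% in NZO/HlLtJ and 35.2% in C57BL/6J. Gm28439, the copy of mt-Nd4, took 0.0690% in CAST/EiJ, 0.00252% in NZO/HlLtJ and 0.0390% in C57BL/6J; its 876 bases have 0 differences from mt-Nd4. Gm29216, which matches mt-Co1 at 482 of 483 bases, averaged 0.118 CPM in CAST/EiJ, 0.109 CPM in NZO/HlLtJ and 0.243 in C57BL/6J, beside 6012, 7777 and 6540 CPM of mt-Co1. A level of mt-Atp6 or mt-Co3 alone therefore holds only part of the counts that match its sequence, and levels with the copies added are given beside them.

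**Figure D2:**
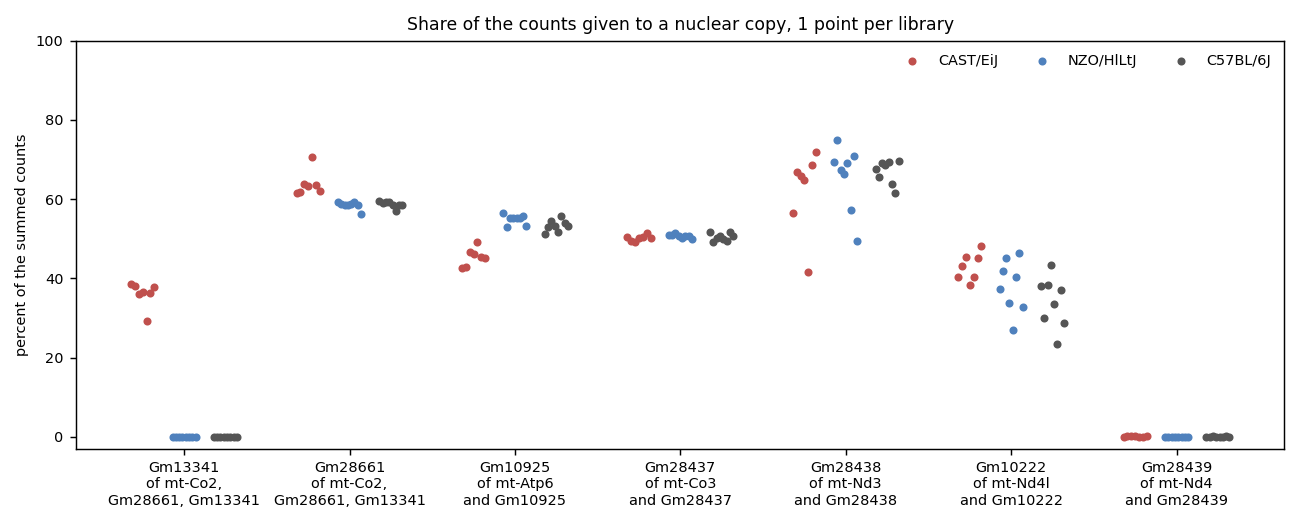
Share of counts given to a nuclear copy (percent of the summed counts of a mitochondrial gene and all its copies, y axis), 1 point per library, for 7 shares along the x axis. Over mt-Co2, Gm13341 and Gm28661 together, Gm13341 stands at 29.3% to 38.5% in CAST/EiJ and near 0% in the other strains, and the shares of Gm28437 lie between 49.2% and 51.6% in every strain.

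Among the complex I genes, mt-Nd2 was the member other than mt-Co2 and Gm13341 that stood farthest apart in CAST/EiJ. It encodes a subunit of the membrane arm of complex I, which pumps protons as NADH is oxidised. In CAST/EiJ mt-Nd2 was at 1723, 1546, 1635 and 1414 CPM on 44% fat and at 1529, 1476 and 1583 CPM on 10% fat. In NZO/HlLtJ it was at 554, 613, 579 and 591 CPM on 44% fat and at 559, 641, 649 and 544 CPM on 10% fat. In C57BL/6J it was at 666, 710, 748 and 721 CPM on 44% fat and at 704, 743, 716 and 661 CPM on 10% fat. The lowest CAST/EiJ library was above the highest library of both other strains, and the ratio of means was 2.63 over NZO/HlLtJ and 2.20 over C57BL/6J. The nuclear copy of mt-Nd2 in the table, Gm13339, stayed below 1 CPM on average in each strain, so adding it left both ratios at 2.63 and 2.20.

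mt-Nd1, another complex I membrane subunit, averaged 1488 ± 70.6 CPM in CAST/EiJ (SD, n = 7), 1183 ± 57.3 CPM in NZO/HlLtJ and 1303 ± 52.6 in C57BL/6J (n = 8 each). Its CAST/EiJ libraries were all above those of NZO/HlLtJ and overlapped those of C57BL/6J. mt-Nd5, a proton-pumping subunit, averaged 1234 CPM in CAST/EiJ, 985 CPM in NZO/HlLtJ and 1028 in C57BL/6J and was likewise apart from NZO/HlLtJ only. mt-Nd4 averaged 1253 CPM in CAST/EiJ, 1299 CPM in NZO/HlLtJ and 1267 in C57BL/6J, and its libraries overlapped between all 3 strains. Of the complex I genes outside the 10, mt-Nd3 with its copy averaged 93.4 CPM in CAST/EiJ, 105 CPM in NZO/HlLtJ and 150 in C57BL/6J.

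For the remaining complexes, mt-Cytb, the cytochrome b subunit of complex III, averaged 1828 CPM in CAST/EiJ, 1663 CPM in NZO/HlLtJ and 1303 in C57BL/6J. mt-Co1, the catalytic subunit of complex IV, was the most abundant member in every strain, at 6012 CPM in CAST/EiJ, 7777 CPM in NZO/HlLtJ and 6540 in C57BL/6J. mt-Co3, the other core complex IV subunit, averaged 1006, 1019 and 936 CPM in CAST/EiJ, NZO/HlLtJ and C57BL/6J, with libraries that overlapped. With Gm28437 added, mt-Co3 averaged 2019.9 CPM in CAST/EiJ, 2065 CPM in NZO/HlLtJ and 1889.5 in C57BL/6J, and the libraries overlapped again. mt-Atp6, the proton channel subunit of ATP synthase, averaged 824 ± 62.8 CPM in CAST/EiJ (SD, n = 7), 594 CPM in NZO/HlLtJ and 567 in C57BL/6J, and its CAST/EiJ libraries lay above those of both other strains. With Gm10925 added, mt-Atp6 averaged 1509 CPM in CAST/EiJ, 1319 CPM in NZO/HlLtJ and 1214 in C57BL/6J, and CAST/EiJ then overlapped NZO/HlLtJ.

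Counted over the 10 members, all CAST/EiJ libraries were above all C57BL/6J libraries for 4 genes (mt-Nd2, mt-Cytb, mt-Atp6 and Gm13341) and below them for 1 (mt-Co2). Over all 22873 genes tested, 39.1% were apart in this way. Against NZO/HlLtJ, CAST/EiJ was above for 5 members (mt-Nd1, mt-Nd2, mt-Nd5, mt-Atp6 and Gm13341) and below for 2 (mt-Co1 and mt-Co2), where 43.9% of all genes were apart. The members were chosen on this contrast, so nothing is read from these shares. With each mitochondrial mRNA summed with its nuclear copies, 3 of 9 were apart from C57BL/6J and 4 of 9 from NZO/HlLtJ.

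**Figure D3:**
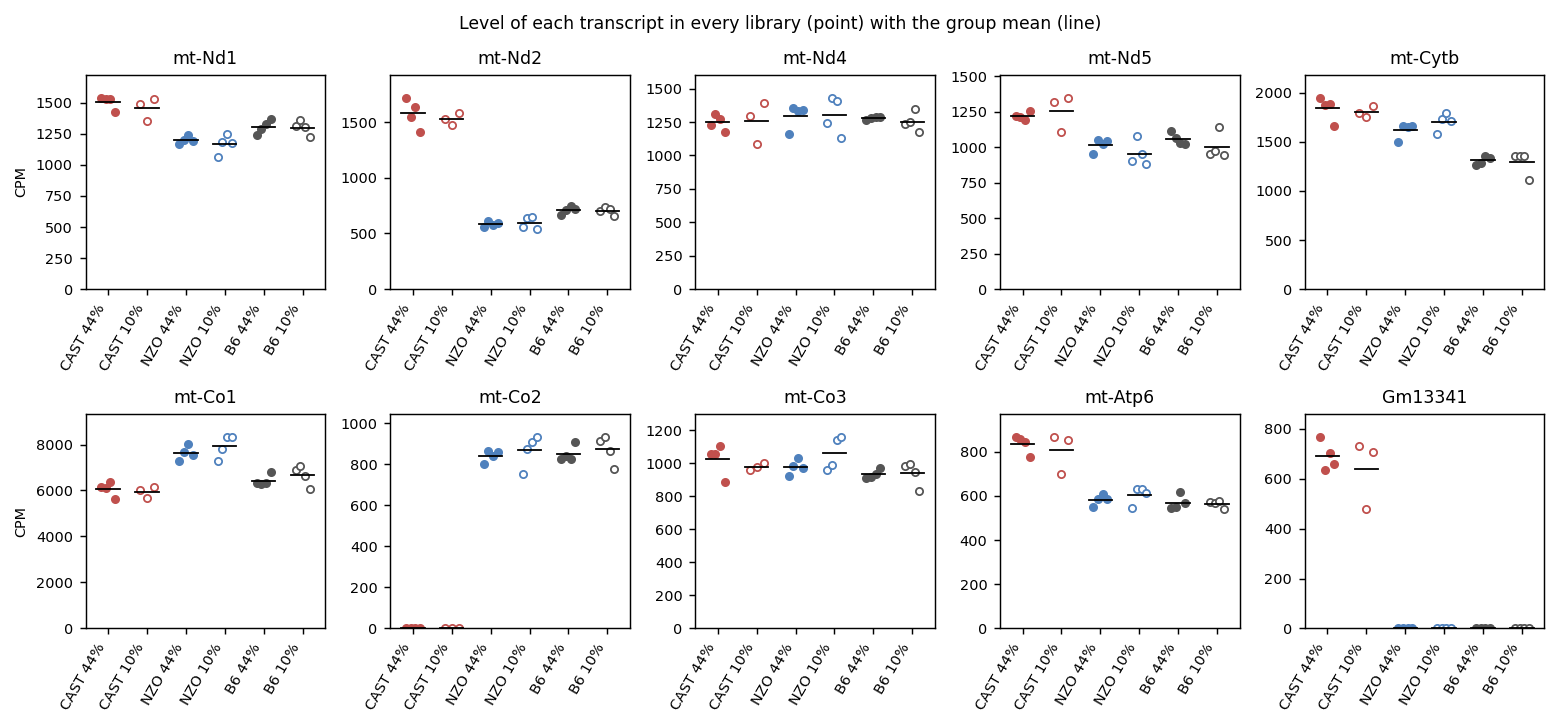
Level of each of the 10 members in CPM (y axis from 0, 1 panel per gene), 1 point per library and a line at the group mean, with groups by strain (B6 is C57BL/6J) and percent fat. mt-Co2 is near 0 and Gm13341 at 479 to 768 CPM in CAST/EiJ, mt-Nd2 lies between 1414 and 1723 CPM there against at most 748 CPM elsewhere, and filled (44% fat) and open (10% fat) points of a strain lie at similar heights.

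The strain values add up to a different composition of the counts of mitochondrial messengers at a similar total. The 13 mitochondrial mRNAs are counted per protein-coding gene, and some neighbours overlap, such as mt-Atp8 with mt-Atp6 and mt-Nd4l with mt-Nd4. With nuclear copies added, these mRNAs took 1.95 ± 0.0964% of all counts in CAST/EiJ (SD, n = 7), 1.96 ± 0.0941% in NZO/HlLtJ and 1.80 ± 0.0803% in C57BL/6J (n = 8 each). The 7 complex I genes made up 31.0 ± 0.627% of that total in CAST/EiJ, 23.2 ± 1.09% in NZO/HlLtJ and 26.7 ± 0.878% in C57BL/6J. The 3 complex IV genes made up 50.8 ± 0.709% in CAST/EiJ, 60.7 ± 1.29% in NZO/HlLtJ and 58.4 ± 1.21% in C57BL/6J. mt-Nd2 alone was 8.01% of the total in CAST/EiJ, 3.02% in NZO/HlLtJ and 3.94% in C57BL/6J. Marker lists of other cells moved with the strain as well. Summed markers of myoid and smooth muscle cells ran from 213 to 246 CPM in CAST/EiJ, from 381 to 408 CPM in NZO/HlLtJ and from 373 to 409 CPM in C57BL/6J (7 genes, none at 0 in any library). Adipose tissue markers ran from 18.6 to 36.0 CPM in CAST/EiJ, from 7.14 to 12.6 CPM in NZO/HlLtJ and from 10.3 to 19.4 CPM in C57BL/6J (8 genes, at most 1 at 0 in a library). Spermatocyte markers (12 genes) ran from 1779 to 1952 CPM in CAST/EiJ, from 1438 to 1662 CPM in NZO/HlLtJ and from 1604 to 1803 CPM in C57BL/6J. Spermatogonial markers ran from 152 to 159 CPM in CAST/EiJ, from 199 to 254 CPM in NZO/HlLtJ and from 128 to 143 CPM in C57BL/6J. CAST/EiJ was apart from NZO/HlLtJ only for round and elongating spermatids, Leydig and Sertoli cells, macrophages, and epididymis and rete testis. Red blood cell markers overlapped between all strains. The part of these cells in the CAST/EiJ values was not tested. The sources used here do not say how strain variants were handled in counting. Their part in the CAST/EiJ values, those of mt-Nd2 and mt-Co1 included, was not tested either. Shares of one total cannot all move independently, and an mRNA with fewer cells of a type behind it cannot be told apart from one with less RNA per cell in bulk tissue.

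**Figure D4:**
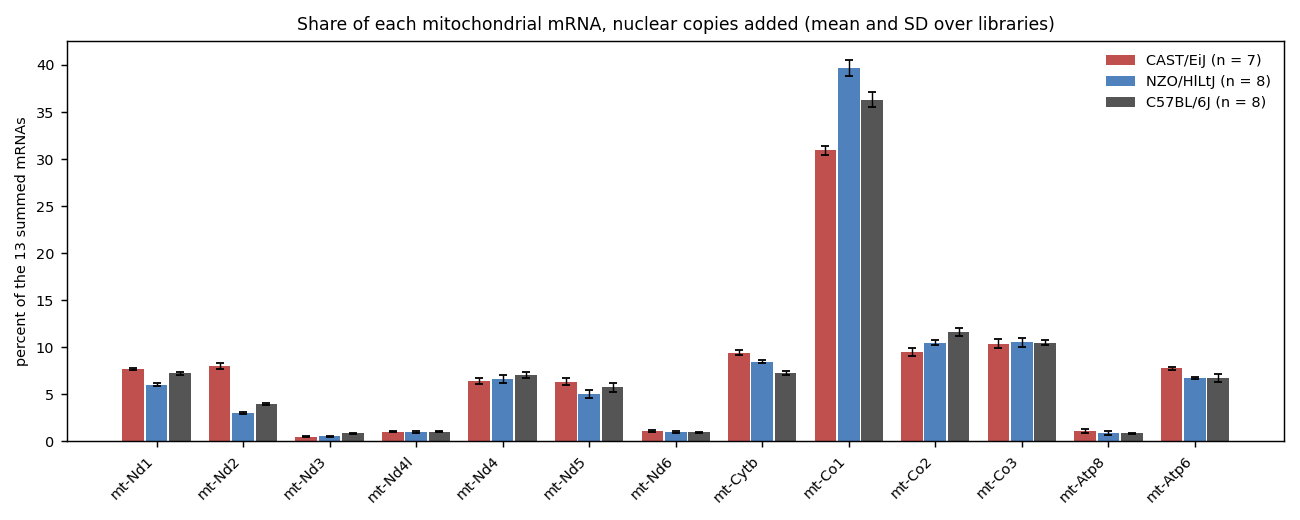
Percent of the 13 summed mitochondrial mRNAs, nuclear copies added, held by each gene (y axis); bars are means and lines SD over libraries of CAST/EiJ (n = 7), NZO/HlLtJ (n = 8) and C57BL/6J (n = 8). mt-Co1 holds 30.9% in CAST/EiJ, 39.7% in NZO/HlLtJ and 36.3% in C57BL/6J, and mt-Nd2 holds 8.01% in CAST/EiJ against 3.02% and 3.94% in the other strains.

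Per kilobase of transcript and with copies added, the order of the genes was nearly constant at its head and foot. mt-Co1 led with 3892 CPM per kb in CAST/EiJ, 5034 in NZO/HlLtJ and 4233 in C57BL/6J, followed in every strain by mt-Co2, mt-Co3 and mt-Atp6. In CAST/EiJ mt-Co2 (2700 ± 199 CPM per kb) and mt-Co3 (2576 ± 174) were within 1 SD of each other. The neighbours mt-Cytb (1598 ± 86.4) and mt-Nd1 (1555 ± 73.8) were too, as were mt-Nd1 and mt-Nd2 (1501 ± 98.0). mt-Nd2 ranked 7 of 13 in CAST/EiJ, 10 of 13 in NZO/HlLtJ and 9 of 13 in C57BL/6J. mt-Nd3 and mt-Nd6, a complex I gene on the other strand of the mitochondrial genome, were the last 2 genes in each strain.

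NZO/HlLtJ and C57BL/6J differed by small amounts in 5 of the 10 members. In NZO/HlLtJ mt-Cytb, mt-Co1 and mt-Co3 were higher and mt-Nd1 and mt-Nd2 were lower (edgeR quasi-likelihood test, adjusted p under 0.05). Of all genes 59.1% passed the same test, and the median log2 difference was 0.05 over the members and 0.01 over all genes. By non-overlap of the libraries, 3 members (mt-Cytb and mt-Co1 above, mt-Nd2 below) were apart, where 26.3% of all genes were.

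mt-Cytb had the largest difference of the 10. On 44% fat it was at 1502, 1664, 1654 and 1660 CPM in NZO/HlLtJ, against 1264, 1289, 1356 and 1336 CPM in C57BL/6J. On 10% fat it was at 1581, 1737, 1792 and 1711 CPM in NZO/HlLtJ, against 1355, 1358, 1359 and 1107 CPM in C57BL/6J. All NZO/HlLtJ libraries were above all C57BL/6J libraries, and the log2 fold change was 0.35 (SE 0.0401, adjusted p = 1.65e-08 by edgeR).

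mt-Co1 was at 7287, 7657, 8017 and 7541 CPM in NZO/HlLtJ on 44% fat, against 6312, 6293, 6307 and 6794 CPM in C57BL/6J. On 10% fat mt-Co1 was at 7278, 7793, 8334 and 8312 CPM in NZO/HlLtJ, against 6891, 7046, 6620 and 6054 CPM in C57BL/6J. The strains were again apart, with a log2 fold change of 0.25 (SE 0.0340, adjusted p = 3.55e-07 by edgeR). mt-Nd2, with the values given above, fell in NZO/HlLtJ by 0.26 on the log2 scale (SE 0.0409, adjusted p = 3.34e-06 by edgeR), and all its NZO/HlLtJ libraries were below all C57BL/6J libraries.

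mt-Nd1 ranged from 1061 to 1250 CPM with a median of 1187 in NZO/HlLtJ, against 1223 to 1369 CPM with a median of 1307 in C57BL/6J. The ranges overlapped, and the log2 fold change was -0.14 (SE 0.0332, adjusted p = 0.000691 by edgeR). mt-Co3 ranged from 925 to 1160 CPM in NZO/HlLtJ, against 832 to 998 CPM in C57BL/6J, a log2 fold change of 0.12 (SE 0.0445, adjusted p = 0.0214 by edgeR). With Gm28437 added it was 0.13 (SE 0.0448, adjusted p = 0.0166 by edgeR). The call on mt-Co3 alone was lost in 6 of 11 alternatives. Adjusted p was 0.283 without the 4 libraries named above, 0.0803 with DESeq2, 0.0752 with DESeq2's size factors in edgeR and 0.135 on the authors' variance-stabilised values. It was 0.133 in the 44% fat groups alone and 0.0664 in the 10% fat groups alone. With 1 library left out it was 0.0545 without NZO/HlLtJ on 10% fat replicate 3, 0.0586 without NZO/HlLtJ on 10% fat replicate 4 and 0.0609 without C57BL/6J on 10% fat replicate 4.

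The other 5 members did not pass the test between these strains. mt-Atp6 differed by 0.07 (adjusted p = 0.150 by edgeR) on its own and by 0.12 (SE 0.0343, adjusted p = 0.00384) with Gm10925 added. mt-Co2 differed by -0.01 (95% interval -0.14 to 0.11) and the sum of mt-Co2 and Gm13341 by -0.01 (SE 0.0620), both with adjusted p = 0.870. mt-Nd4 and mt-Nd5 differed by 0.04 and -0.06, and Gm13341, with 28 and 23 counts in all, gave an interval from -1.11 to 1.27. With copies added, 8 of the 13 mitochondrial mRNAs passed, 5 higher and 3 lower in NZO/HlLtJ. That share is near the 59.1% of all genes that passed without these sums. mt-Nd3 with Gm28438 had the largest of these differences, at -0.53 (SE 0.0711, adjusted p = 3.18e-07).

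Cell type markers moved between these strains too. Summed markers of elongating spermatids ran from 12249 to 16039 CPM in NZO/HlLtJ, against 15565 to 17541 CPM in C57BL/6J (12 genes). Leydig cell markers ran from 1296 to 1868 CPM in NZO/HlLtJ, against 643 to 896 CPM in C57BL/6J (9 genes). Sertoli cell markers ran from 1304 to 1774 CPM in NZO/HlLtJ, against 1156 to 1248 CPM in C57BL/6J (13 genes). Spermatogonial markers ran from 199 to 254 CPM in NZO/HlLtJ, against 128 to 143 CPM in C57BL/6J (11 genes). None of these 4 lists had a gene at 0 in any library. Round spermatid markers ran from 932 to 1028 CPM in NZO/HlLtJ, against 1084 to 1260 CPM in C57BL/6J (10 genes), and epididymis and rete testis markers from 240.2 to 282 CPM in NZO/HlLtJ, against 362 to 400.3 CPM in C57BL/6J (11 genes, up to 3 at 0). Their part in the mitochondrial differences was not tested.

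Diet changed none of the 10 members in any strain at an adjusted p under 0.05. In CAST/EiJ 0 members passed in edgeR, with 1 (mt-Co2) at an unadjusted p under 0.05, against 0% of all genes called and 941 at an unadjusted p under 0.05. In NZO/HlLtJ 0 members passed and 0 had an unadjusted p under 0.05, against 0.00437% of all genes called. The ID numbers in the titles fall into 3 runs, of which the NZO/HlLtJ libraries on 44% and on 10% fat share only 1. With the run as a term 0 members passed there too. In C57BL/6J the members' counts were also 0 and 0, against 0.00874% of all genes called. Averaged over the strains 0 members and 0% of genes were called, with 1 member (mt-Co2) at an unadjusted p under 0.05. DESeq2, limma-voom and limma on the authors' transformed values called 0 members in each of these comparisons too.

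The 8 mitochondrial members other than mt-Co2 lay close to no diet difference in every strain. Their log2 differences of 44% minus 10% fat ran from -0.05 to 0.07 in CAST/EiJ, from -0.12 to 0.10 in NZO/HlLtJ and from -0.05 to 0.08 in C57BL/6J. Over the 8 genes the 95% intervals reached from 0.879-fold to 1.16-fold in CAST/EiJ, from 0.841-fold to 1.17-fold in NZO/HlLtJ and from 0.902-fold to 1.16-fold in C57BL/6J, so larger changes of these genes lie outside them. The sum of mt-Co2 and Gm13341 differed by 0.11 (SE 0.0950) in CAST/EiJ, -0.04 (SE 0.0876) in NZO/HlLtJ and -0.04 (SE 0.0877) in C57BL/6J.

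mt-Co2 in CAST/EiJ, at the few CPM listed above, had the largest diet value of the members. The 4 libraries on 44% fat averaged 2.64 CPM and the 3 on 10% fat 1.76 CPM, and the ranges of 1.92 to 3.81 CPM and 1.44 to 2.32 CPM overlapped. The log2 fold change was 0.66 (95% interval 0.24 to 1.07, adjusted p = 0.948 by edgeR). Without CAST/EiJ on 44% fat replicate 1 it was 0.35. These counts are 0.112% of those of mt-Co2 and its copies in CAST/EiJ, and with the copies added the difference was 0.03 (SE 0.0701).

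The diet effect was also compared between the strains, the question the design implies. In edgeR's test of both interaction terms 0 members and 0% of all genes passed, with 1 member (mt-Co2, adjusted p = 0.943) and 1121 of all genes at an unadjusted p under 0.05. DESeq2 called 8 genes and limma-voom 0, and neither called a member.

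**Figure D5:**
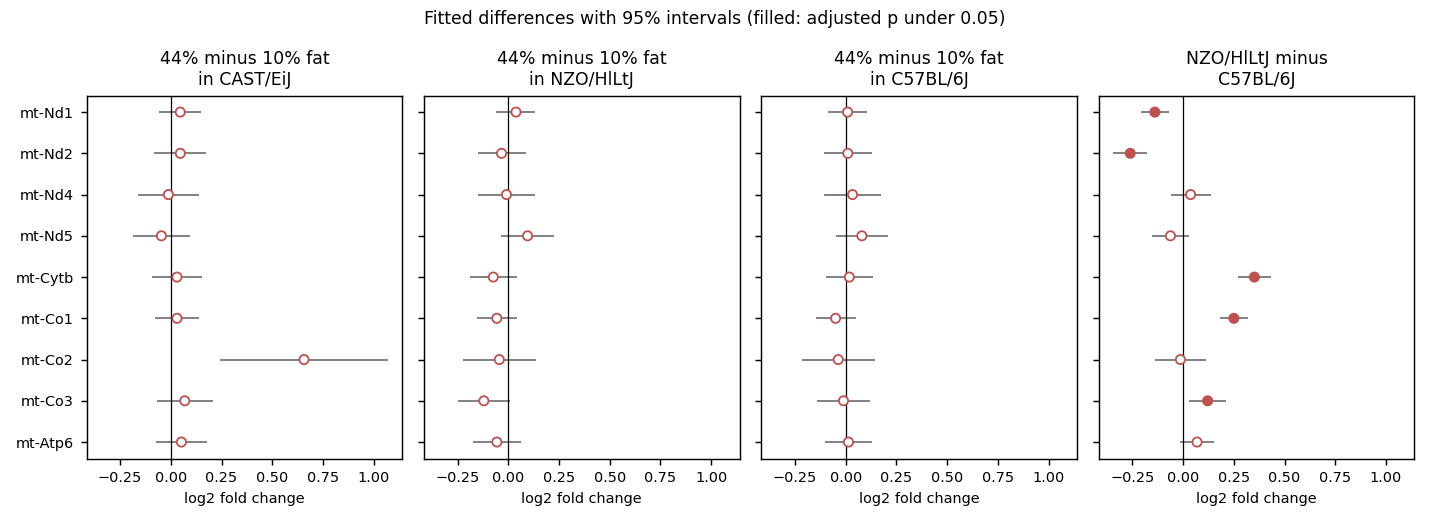
Fitted log2 fold changes with 95% intervals (x axis) for the 9 mitochondrial members, for 44% minus 10% fat in each strain and for NZO/HlLtJ minus C57BL/6J; filled points have an adjusted p under 0.05, and Gm13341 is left out for its wide interval outside CAST/EiJ. No diet point is filled, and mt-Cytb, mt-Co1 and mt-Co3 are filled to the right of 0 and mt-Nd1 and mt-Nd2 to the left in the last panel.

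Nuclear genes that make, handle or join the mitochondrial products were read from 9 lists with 147 genes tested. Between NZO/HlLtJ and C57BL/6J 66 of the 147 passed, 37 higher and 29 lower in NZO/HlLtJ, with a median log2 difference of 0.05, where 59.1% of all genes passed. Of 36 nuclear complex I subunits 12 were higher and 3 lower. Ndufa12 averaged 129 ± 9.51 CPM in NZO/HlLtJ and 87.4 ± 11.5 in C57BL/6J (SD, n = 8 each; log2 0.56, adjusted p = 6.61e-09 by edgeR). Ndufb5, Ndufa9 and Ndufa13 were the 3 that were lower, by -0.14, -0.13 and -0.15 on the log2 scale. The list's median was 0.05. Among the mitochondrial complex I genes mt-Nd1 and mt-Nd2 were lower and mt-Nd6 higher (0.19, adjusted p = 0.00507 by edgeR). With its copy added mt-Nd3 was lower as well (-0.53, adjusted p = 3.18e-07 by edgeR), and mt-Nd4, mt-Nd4l and mt-Nd5 with their copies did not pass.

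Of 15 nuclear complex IV subunits 4 were higher and 2 lower in NZO/HlLtJ. Cox7b rose by 0.80 on the log2 scale (adjusted p = 6.81e-08) and Cox8a by 0.46 (adjusted p = 7.51e-07, both by edgeR). Of 11 complex III subunits and cytochromes c 4 were higher, among them Cyc1, the cytochrome c1 subunit, at 0.25 (adjusted p = 0.000375 by edgeR), and 3 lower. Among 17 nuclear ATP synthase genes 2 were higher, Atp5g3 at 0.33 and Atp5e at 0.27, and 2 lower. These counts stand beside 59.1% of all genes that passed.

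Genes of mitochondrial RNA metabolism went both ways between NZO/HlLtJ and C57BL/6J. Of 9 transcription genes 1 was higher and 3 lower: Tfam, which packages mitochondrial DNA and starts its transcription, was at 136 ± 7.84 CPM in NZO/HlLtJ and 154 ± 10.6 in C57BL/6J (log2 -0.18, adjusted p = 0.000611 by edgeR). Of 24 genes of RNA processing, tailing and decay 5 were higher and 8 lower. Lrpprc, which stabilises mitochondrial messengers, rose by 0.26 (adjusted p = 2.81e-07) and Fastk, whose mitochondrial form binds the mt-Nd6 messenger, fell by 0.68 (adjusted p = 7.68e-13). Of 8 biogenesis regulators 2 were higher and 2 lower, among them the coactivator Ppargc1a at 1.89 ± 0.320 CPM in NZO/HlLtJ and 3.55 ± 0.500 in C57BL/6J (log2 -0.90, adjusted p = 8.61e-08). Translation factors gave 5 higher and 4 lower of 14, and mitochondrial DNA maintenance genes 2 higher and 3 lower of 14. Here too the share over all genes was 59.1%.

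The nuclear lists were drawn up by gene function, though with earlier results of these data known. In CAST/EiJ 94 of 147 genes passed against C57BL/6J, 55 higher and 39 lower, where 66.8% of all genes did. Against NZO/HlLtJ 104 passed, 48 higher and 56 lower, where 72.1% of all genes did. Both comparisons share the CAST/EiJ libraries. Mterf2, a member of the mitochondrial transcription termination factor family, averaged 15.2 CPM in CAST/EiJ, 7.39 CPM in NZO/HlLtJ and 6.91 in C57BL/6J. Taco1, which in human cells activates translation of the mt-Co1 messenger, averaged 7.42 CPM in CAST/EiJ, 3.07 CPM in NZO/HlLtJ and 2.57 in C57BL/6J. Of the 14 translation factors, the list of Taco1, 4 were higher and 7 lower in CAST/EiJ against each other strain. Of the 9 transcription genes, the list of Mterf2, 3 were higher and 3 lower against C57BL/6J. Against NZO/HlLtJ 5 of these 9 were higher and 3 lower. Diet changed 0 of the 147 nuclear genes in each strain, over the strains and between strains in edgeR. DESeq2 also called 0 in each. At an unadjusted p under 0.05 there were 25 of the 147 in NZO/HlLtJ (17%, 2 higher and 23 lower on 44% fat), where 6.80% of all genes had such a p, and the list's median log2 difference was -0.08, against -0.0019 over all genes. The NZO/HlLtJ diets share only 1 of the 3 runs of ID numbers, and the nuclear genes were not counted with the run as a term. Over the strains there were 23 (15.6%, 1 higher and 22 lower), where 3.92% of all genes had such a p. That average includes the same NZO/HlLtJ libraries. There was 1 in CAST/EiJ (0.680%, against 4.11% of all genes), and there were 5 in C57BL/6J (3.40%, against 2.93%) and 6 between strains (4.08%, against 4.90%).

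Within groups many pairs of mitochondrial members varied together. After the group means were removed, the 28 pairs among the 8 members other than mt-Co2 had Pearson correlations of log2 CPM from -0.12 to 0.91 with a median of 0.65 over the 23 libraries. The highest was between mt-Co1 and mt-Co3 (0.91) and the lowest between mt-Nd5 and mt-Co3 (-0.12). mt-Nd5 correlated at 0.11 with mt-Co1, 0.29 with mt-Nd1, 0.30 with mt-Cytb and 0.35 with mt-Nd2, against 0.49 with mt-Atp6 and 0.78 with mt-Nd4. With mt-Co2 included the median over 36 pairs was 0.56. All pairs share the library and its scaling, and the pairs are given as a description. Among 12376 genes with a mean of at least 5 CPM, the residuals of Dctn5 (r = 0.864), Ppp6c (r = 0.856) and the copies Gm28661 (r = 0.848) and Gm28437 (r = 0.815) followed the summed 9 mitochondrial members most closely, with Vdac1 (r = 0.836), the pore of the outer mitochondrial membrane. Hivep1 (r = -0.828) and Gm7168 (r = -0.827) ran most against it.

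Over all 23 libraries, where the strain difference dominates, the genes most like Gm13341 were Dnah8, Gstz1, Gm1821, 4930451G09Rik and Ift57 (r = 0.994 to 0.995). Dnah8, an axonemal dynein of the sperm tail, averaged 6333 CPM in CAST/EiJ, 2780 CPM in NZO/HlLtJ and 2760 in C57BL/6J. The genes most like mt-Co2 were 1700028D13Rik, Gm13605, Gm10175, 1700065I16Rik and Gm42427 (r = 0.997). The highest of them, Gm42427, averaged 31.7 CPM in CAST/EiJ, 199 CPM in NZO/HlLtJ and 188 in C57BL/6J.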

How the data were processed

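RNA sequencing of testis gave 2 deposited tables for 23 libraries: estimated counts per gene by the authors, of which 23.1% were not whole, and log2 values that the authors had variance-stabilised. The submitters' processing notes name GRCm38 and DESeq2. Not given in the sources used here: the aligner, the counter, the annotation, the strand setting, how strain variants were handled. Gene positions in the deposited annotation table are in megabases, another unit, and served for comparison with GENCODE M21. Every deposited gene had counts in at least 12 libraries.

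Estimated counts were rounded, filtered with filterByExpr (22873 genes left) and tested in edgeR 4.0.16 (R 4.3.3, quasi-likelihood F test, TMM), with 1 mean for each of 6 groups, all libraries in 1 fit and Benjamini-Hochberg adjustment over all genes at 0.05. Levels are TMM-scaled CPM. Transcripts were compared with BLAST 2.17.0, keeping matches of at least 100 bases and 90% identity. A copy covered over at least 80% joined its gene's sum. Alternatives used DESeq2 1.42.0 and limma 3.58.1. The tests were tried on simulated data.

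The members and lists were chosen with earlier results of these data known. Named genes are the members, other mitochondrial RNAs, their nuclear copies, up to 3 changed genes per list and direction by smallest p, and the 5 most alike in pattern. Labels name separate samples, so p-values measure the spread between these. Over 33 replicate pairs the chi-square of counts per degree of freedom was 3.32 to 18.0, so no pair looked like 1 library.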

Additional observations from a re-analysis of the deposited data

Results flagged for a closer look

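In the groups of 4 libraries, 13 values were looked at in 5 groups each (65 tests), and 6 had a library far from the other 3; chance gives about 1 in 20. In CAST/EiJ on 44% fat, mt-Nd1 was lowest in replicate 4, at 1426 CPM against 1528 to 1543 CPM in the others. NZO/HlLtJ on 44% fat replicate 1 was lowest for mt-Nd4, at 1161 CPM against 1330 to 1353 CPM, and for mt-Cytb, at 1502 CPM against 1654 to 1664 CPM. mt-Co1 in C57BL/6J on 44% fat was highest in replicate 4, at 6794 CPM against 6293 to 6312 CPM. In C57BL/6J on 10% fat, mt-Nd5 was highest in replicate 3, at 1140 CPM against 941 to 970 CPM, and mt-Cytb lowest in replicate 4, at 1107 CPM against 1355 to 1359 CPM.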

How the results depend on the processing

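With each mitochondrial mRNA summed with its nuclear copies, an alternative chosen after seeing the data, 3 of 9 members in CAST/EiJ were apart from C57BL/6J (5 of 10 without the sums) and 4 of 9 from NZO/HlLtJ (7 of 10): the sum of mt-Co2, Gm13341 and Gm28661 overlapped both strains, and mt-Atp6 with Gm10925 overlapped NZO/HlLtJ. Counts of members that passed kept within 1.5 times in every other alternative: 4 to 6 between NZO/HlLtJ and C57BL/6J, 0 for diet, and 0 for the sum of mt-Co2 and Gm13341. Nuclear genes passing between NZO/HlLtJ and C57BL/6J numbered 59 to 68. Over all genes, DESeq2 called 3, 7, 6 and 8 for diet in CAST/EiJ, in NZO/HlLtJ, over the strains and between strains, against 0, 1, 0 and 0 in edgeR; the cause was not tested. 2 uncalled differences of NZO/HlLtJ minus C57BL/6J changed sign: mt-Co2 ran from -0.039 to 0.018 with 1 library left out, and Gm13341 from -0.051 to 0.32, or -0.14 without the 4 libraries that stand apart, at 28 and 23 counts in all. Depth limits Gm13341 outside CAST/EiJ and mt-Co2 within it. No paired analysis was possible because the labels give no replicate numbers. With the run of ID numbers in the titles (3 runs) as a term, 25 of 26 values kept their call or count, and genes called for diet in NZO/HlLtJ went to 0, against 1. The sum on the transformed table was not run, nor tests of the CAST/EiJ description.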
